A study of Mus musculus with 6 samples.

Results

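Most *Clec* genes encode proteins with a C-type lectin-like domain. All rows of the count table whose symbol begins with Clec, a number, and a letter were taken as members. Of the 48440 rows, 33 met this rule. Of these members, 17 were classed as myeloid, that is, as receptors known mainly from macrophages, monocytes, dendritic cells, or platelets, and the other 16 as other members. The counts came from dorsal root ganglia (DRGs) of WT male mice, in which unilateral L3/4 DRGs had been microinjected with virus and the ipsilateral L3/4 DRGs were then collected. The control group received AAV5-*Gfp*, an adeno-associated virus of serotype 5 carrying green fluorescent protein (3 libraries). The other group received AAV5-*V1* mixed with AAV5-*V2* (AAV5-*V1+V2*, 3 libraries), and thus both variants of *NIS-lncRNA*, a long noncoding RNA that is induced in DRGs after nerve injury. The comparison asked which genes lie downstream of *NIS-lncRNA*. The text deposited with the data gives collection at 5 weeks after microinjection and also names 4 weeks for the comparison. The microinjection itself and the viral serotype were common to both groups, and the virus preparation and the transcripts it carried cannot be told apart. The labels do not say whether each library came from a separate animal, so p-values measure the spread between these libraries only.

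C-type lectin receptors let myeloid cells sense sugars and lipids of fungi and bacteria and molecules released by dying cells. The activating ones recruit the tyrosine kinase Syk, either through a motif in their own tail or through the adaptors FcRγ (*Fcer1g*) and DAP12 (*Tyrobp*), and the signal passes through Card9, Bcl10, and Malt1 to NF-κB and cytokine genes. The inhibitory ones carry a tail motif (ITIM) that recruits phosphatases such as SHP-1 (*Ptpn6*). Other *Clec* genes have different roles: the Clr proteins of the *Clec2* family are recognized by NKRP1 receptors of natural killer cells, and further members are endothelial, secreted, or neuronal. A healthy DRG holds resident macrophages among its neurons and satellite glial cells.

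Most of the *Clec* genes that were tested were higher in AAV5-*V1+V2* DRGs, and *Clec4e*, *Clec4d*, *Clec4n*, and *Clec2g* had the largest fitted differences. Of the 33 members, 24 passed the filter on low counts, and 15 of these 24 rose, 0 fell, and 9 were not called (edgeR's quasi-likelihood test, Benjamini-Hochberg adjusted p under 0.05 over all genes tested). At an unadjusted p under 0.05, 17 members were higher and 1 was lower, and DESeq2 and limma-voom also called 0 lower. Over all 18593 genes tested, 10.1% were called higher and 5.27% lower. The median log2 fold change was 1.24 over the 24 tested members and -0.0003 over all genes tested. Every AAV5-*V1+V2* library lay above every AAV5-*Gfp* library for 17 of the 24, where 23.4% of all genes tested did so. Of the tested members, 23 had at least 10 counts in all 3 AAV5-*Gfp* libraries, so that their passing the filter did not depend on the AAV5-*V1+V2* group. The exception was *Clec4a4*.

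The myeloid members made up most of these calls. Among them 14 of 17 were tested, 11 rose, and 3 were not called, with a median log2 fold change of 1.92. Among the other members 10 of 16 were tested, 4 rose, and 6 were not called, with a median log2 fold change of 0.39. The share called higher was 78.6% of the tested myeloid members and 40.0% of the tested others, beside the 10.1% of all genes. These shares are descriptions, since the members are not replicates of one another.

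**Figure D1:**
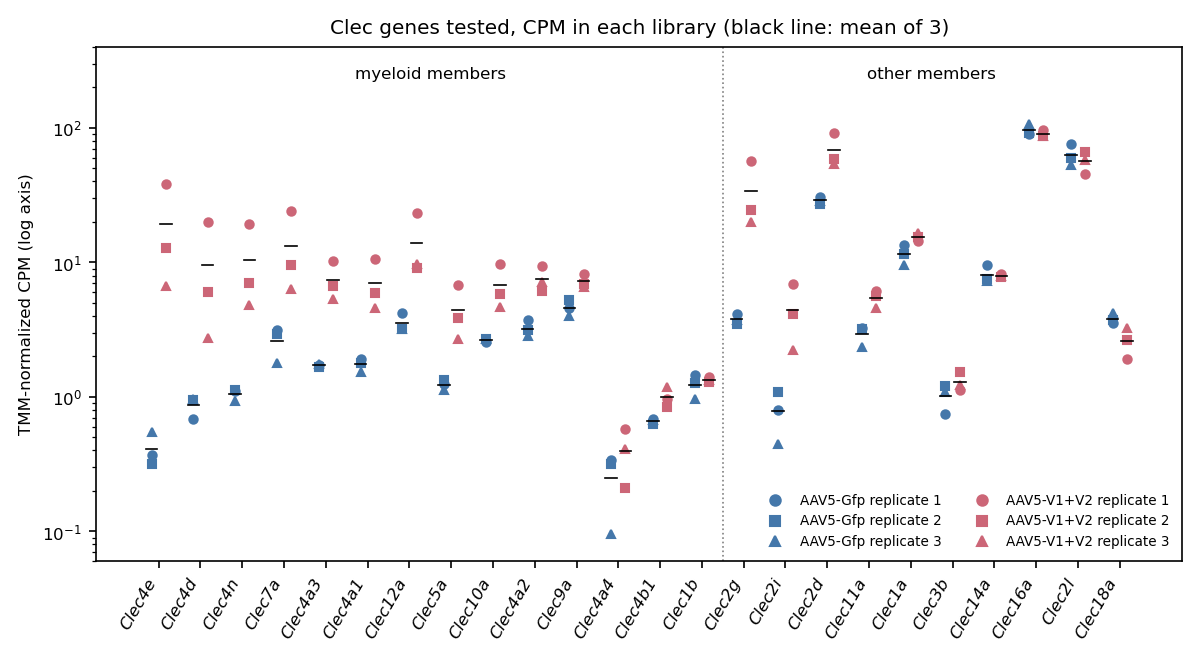
Normalized read counts (CPM, scaled by TMM to library size, log axis) of the 24 tested *Clec* genes in each library, with symbols for the replicates and a black line at the mean of each group; myeloid members are left of the dotted line and each class is ordered by its log2 fold change. AAV5-*V1+V2* replicate 1 is the highest library for all 15 called genes, and for *Clec4e* the mean goes from 0.411 CPM to 19.2 CPM.

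Total counts were between 32618252 and 34764282 in the AAV5-*Gfp* libraries and between 32025612 and 34228594 in those of AAV5-*V1+V2*. AAV5-*V1+V2* replicate 1 stood apart: it was the highest of the AAV5-*V1+V2* libraries for 1728 of the 1872 genes called higher. Many markers of macrophages, dendritic cells, B cells, and T and NK cells moved with the *Clec* genes. Most neutrophil and platelet markers were not called by edgeR. Over all genes tested, 10.1% were called higher and 5.27% lower. Of 16 macrophage and monocyte markers 13 rose and 0 fell, and their summed level was 271 to 304 CPM in the AAV5-*Gfp* libraries and 621 to 1626 CPM in those of AAV5-*V1+V2*. The summed level of 8 B cell markers, all of which rose, went from 18.7 to 30.5 CPM to 143 to 387 CPM, and that of 10 T and NK cell markers, of which 9 rose, from 3.78 to 10.2 CPM to 37.2 to 81.3 CPM. Of these, 1 B cell marker and 6 T and NK cell markers passed the filter only through the AAV5-*V1+V2* group. Of 12 dendritic cell markers 9 rose, among them *Itgax* (log2 fold change 3.14), *Xcr1* (2.55), and *Wdfy4* (2.20), and 1 fell, *Cadm1*, which neurons also express and which made the summed level overlap (858 to 1019 CPM and 825 to 920 CPM). Of 12 neutrophil markers 2 rose (151 to 173 CPM and 212 to 435 CPM), of 10 fibroblast markers 3 rose (1486 to 1942 CPM and 2245 to 3195 CPM), of 10 endothelial markers 1 rose (201 to 218 CPM and 212 to 258 CPM), and of 10 platelet markers 0 were called (13.7 to 15.5 CPM and 16.9 to 22.7 CPM). At an unadjusted p under 0.05, 3 platelet markers were higher, and DESeq2 and limma-voom called 0 of them, whereas for the neutrophil markers DESeq2 called 8 higher and limma-voom 0. The 12 DRG neuron markers had a summed level of 9647 to 10295 CPM in the AAV5-*Gfp* libraries and 6302 to 9111 CPM in the others, and 1 of them (*Pou4f1*) fell. The 10 markers of satellite glia and Schwann cells overlapped (4241 to 4971 CPM and 4295 to 4582 CPM), and 1 of them (*Cadm2*) fell. At an unadjusted p under 0.05, 4 neuron markers and 3 of these glial markers were lower. DESeq2 called 4 neuron and 2 glial markers lower, and limma-voom 1 and 1. No marker was at 0 in every library, and the tissue's neuronal and glial markers were abundant throughout. In bulk DRGs, more cells of a type and more RNA per cell cannot be told apart, and the part of cell number in the results on *Clec* genes was not tested.

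Of the activating receptors, 3 lie side by side at one end of the Dectin-2 cluster on chromosome 6. They had the largest log2 fold changes of all members in the fit reported. Without AAV5-*V1+V2* replicate 1, *Clec2g*, outside this cluster, ranked above *Clec4n* and *Clec4d* (log2 fold changes of 2.57, 2.49, and 2.34). *Clec4e* encodes Mincle, a receptor for mycobacterial cord factor and for a nuclear protein released by dead cells. Listed by replicate from 1 to 3, here and for the genes that follow, its counts were 12, 11, and 17 with AAV5-*Gfp* and 1257, 428, and 228 with AAV5-*V1+V2*. Its mean level went from 0.411 ± 0.119 CPM to 19.2 ± 16.7 CPM (SD, n = 3 per group), a log2 fold change of 5.54 with a standard error of 0.77 (adjusted p = 0.0144). The lowest AAV5-*V1+V2* library had over 10 times the counts of any AAV5-*Gfp* library, and the fold of 46.6 became 23.7 without AAV5-*V1+V2* replicate 1. *Clec4d*, which encodes the Mincle partner MCL, had 22, 33, and 30 counts with AAV5-*Gfp* and 657, 201, and 94 counts with AAV5-*V1+V2*. The groups did not overlap, but the spread among the AAV5-*V1+V2* libraries was the widest of the called members, with replicate 1 at 7.29 times the CPM of replicate 3. The log2 fold change was 3.46 with a standard error of 0.73 (adjusted p = 0.0267), and the fold of 11.0 became 5.06 without replicate 1. *Clec4n* encodes Dectin-2, which binds fungal mannans. It had 36, 39, and 29 counts with AAV5-*Gfp* and 636, 236, and 166 counts with AAV5-*V1+V2*, again without overlap (log2 fold change 3.29, standard error 0.54, adjusted p = 0.0159). Its fold of 9.81 became 5.63 without replicate 1.

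*Clec4b1*, a further FcRγ-coupled receptor of this cluster, had 22, 22, and 21 counts with AAV5-*Gfp* and 32, 28, and 41 counts with AAV5-*V1+V2*. All 3 AAV5-*V1+V2* libraries lay above the controls, but the difference did not pass the test (log2 fold change 0.60, standard error 0.22, adjusted p = 0.110). Its relative *Clec4b2* had 3, 9, and 6 counts with AAV5-*Gfp* and 28, 9, and 13 counts with AAV5-*V1+V2* and did not pass the filter on low counts.

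Activating receptors elsewhere on chromosome 6 also rose. *Clec7a* encodes Dectin-1, the receptor for fungal β-glucan, which recruits Syk through its own tail. It had 101, 102, and 56 counts with AAV5-*Gfp* and 788, 320, and 217 counts with AAV5-*V1+V2*. All of the latter were above all of the former, at a log2 fold change of 2.34 with a standard error of 0.50 (adjusted p = 0.0278) and a fold of 5.05 that became 3.04 without AAV5-*V1+V2* replicate 1. GENCODE M21 lists *Clec7a* as a polymorphic pseudogene. *Clec5a*, which encodes the DAP12-coupled receptor MDL-1, had 40, 46, and 35 counts with AAV5-*Gfp* and 224, 129, and 93 counts with AAV5-*V1+V2*. The groups were apart (log2 fold change 1.86, standard error 0.34, adjusted p = 0.0196).

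*Clec9a* and *Clec1b* are neighbors with tail motifs of the same kind, and only the first of them was called. *Clec9a* encodes DNGR-1, which marks cross-presenting dendritic cells and binds actin filaments exposed by dead cells. It had 148, 183, and 125 counts with AAV5-*Gfp* and 270, 232, and 225 counts with AAV5-*V1+V2*, a small difference without overlap (log2 fold change 0.65, standard error 0.15, adjusted p = 0.0342). The adjusted p was 0.0501 without AAV5-*V1+V2* replicate 1 and 0.0767 without replicate 2, at log2 fold changes of 0.55 and 0.69. *Clec1b*, the platelet receptor for podoplanin, had 47, 44, and 30 counts with AAV5-*Gfp* and 46, 43, and 46 counts with AAV5-*V1+V2*, which overlapped (log2 fold change 0.13, standard error 0.21, adjusted p = 0.694). Exons of these neighbors share 184 bases on the same strand, and reads there could have been counted for either. Whether their log2 fold changes differ was not tested.

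Of the 3 inhibitory receptors tested, 2 rose. *Clec12a*, which encodes MICL, an ITIM receptor for uric acid crystals on neutrophils and macrophages, had 135, 110, and 100 counts with AAV5-*Gfp* and 762, 303, and 337 counts with AAV5-*V1+V2*. No library of either group reached into the other (log2 fold change 1.99, standard error 0.38, adjusted p = 0.0207). *Clec4a2*, which encodes the ITIM receptor DCIR, had 120, 109, and 88 counts with AAV5-*Gfp* and 310, 205, and 246 counts with AAV5-*V1+V2* (log2 fold change 1.23, standard error 0.19, adjusted p = 0.0153). It was among the called members with the least spread in AAV5-*V1+V2*. The third tested ITIM gene, *Clec4a4*, had 11, 11, and 3 counts with AAV5-*Gfp* and 19, 7, and 14 counts with AAV5-*V1+V2* and was not called (log2 fold change 0.64, standard error 0.53, adjusted p = 0.422). *Clec4a4* shares 15.7% of its 50-base exon segments with *Clec4a2*, and *Clec4b1* shares 8.69% with it, so that counts of these low genes are uncertain. *Clec12b*, the remaining inhibitory member, had 4, 6, and 2 counts and 5, 7, and 16 counts and was not tested.

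DCIR relatives without the inhibitory motif rose too, and had larger fitted values than *Clec4a2*, a difference that was not tested. *Clec4a3* had 56, 58, and 55 counts with AAV5-*Gfp* and 340, 221, and 185 counts with AAV5-*V1+V2* (log2 fold change 2.11, standard error 0.25, adjusted p = 0.0139). *Clec4a1* had 62, 62, and 48 counts with AAV5-*Gfp* and 351, 197, and 157 counts with AAV5-*V1+V2* (log2 fold change 2.01, standard error 0.32, adjusted p = 0.0157). For these genes the AAV5-*Gfp* libraries were close together and all AAV5-*V1+V2* libraries far above them. *Clec10a*, the galactose-binding endocytic receptor MGL1 of macrophages and dendritic cells, had 83, 94, and 84 counts with AAV5-*Gfp* and 323, 194, and 161 counts with AAV5-*V1+V2* (log2 fold change 1.35, standard error 0.27, adjusted p = 0.0239). *Clec4f*, the lectin of liver Kupffer cells, had at most 1 count in any library.

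Because many of the myeloid members rose together, their promoters are shown with the matches to the short core bound by PU.1, a transcription factor of myeloid cells. RefSeq promoters (GRCm38.p6) were matched to 25 of the 33 members, and the 250 bases before each start were searched on both strands for GAGGAA. Of the 25, 14 held it in at least 1 promoter, beside 23.3% of all 32817 promoters. The members were counted by gene and the background by single promoter, here and for the motifs below. *Clec2i*, *Clec4a3*, and *Clec7a* had 2 promoters each, and *Clec4a3* held a match in only 1 of them. The GAGGAA core was found in 9 of the 14 myeloid members with a promoter and in 5 of the 11 others. Among members called higher, 7 of 9 myeloid and 1 of 4 others held it, and among those not called higher 6 of 12 did. A C/EBP-type motif (TTGCNNAA) was present in 4 of the 25 (9.57% of all promoters) and an AP-1-type motif (TGANTCA) in 5 (6.75%), and no matches overlapped in the members. The sequences below run 5′ to 3′ on the gene's strand, each ending at the base before the start, with matches to GAGGAA or its complement in capitals. *Clec4e* (chr6:123289872-123290121, minus strand), *Clec5a* (chr6:40585806-40586055, minus strand), and *Clec12a* (chr6:129349994-129350243, plus strand) stand for called myeloid genes with more than 1 match, and *Clec7a* (chr6:129472780-129473029, minus strand) for those with 1. *Clec4b1* (chr6:123049712-123049961, plus strand) has 2 matches and was not called, and *Clec2g* (chr6:128934131-128934380, plus strand) has none and was called.
Clec4e: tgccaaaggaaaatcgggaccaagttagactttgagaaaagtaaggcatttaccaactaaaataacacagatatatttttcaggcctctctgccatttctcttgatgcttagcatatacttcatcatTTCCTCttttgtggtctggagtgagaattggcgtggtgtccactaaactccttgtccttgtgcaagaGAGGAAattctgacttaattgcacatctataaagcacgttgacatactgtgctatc
Clec5a: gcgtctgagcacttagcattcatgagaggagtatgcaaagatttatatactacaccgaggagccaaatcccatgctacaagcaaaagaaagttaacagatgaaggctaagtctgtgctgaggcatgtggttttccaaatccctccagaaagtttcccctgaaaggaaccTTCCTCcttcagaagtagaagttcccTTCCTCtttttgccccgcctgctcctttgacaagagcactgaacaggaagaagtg
Clec12a: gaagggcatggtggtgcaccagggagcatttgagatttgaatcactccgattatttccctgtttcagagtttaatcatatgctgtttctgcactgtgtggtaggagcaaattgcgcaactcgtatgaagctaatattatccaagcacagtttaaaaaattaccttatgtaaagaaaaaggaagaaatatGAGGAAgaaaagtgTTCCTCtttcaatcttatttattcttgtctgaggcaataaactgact
Clec7a: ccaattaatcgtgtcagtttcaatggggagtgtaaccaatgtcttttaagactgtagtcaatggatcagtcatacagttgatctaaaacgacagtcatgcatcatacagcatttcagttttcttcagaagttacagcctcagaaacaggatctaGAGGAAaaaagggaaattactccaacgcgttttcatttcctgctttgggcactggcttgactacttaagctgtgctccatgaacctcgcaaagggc
Clec4b1: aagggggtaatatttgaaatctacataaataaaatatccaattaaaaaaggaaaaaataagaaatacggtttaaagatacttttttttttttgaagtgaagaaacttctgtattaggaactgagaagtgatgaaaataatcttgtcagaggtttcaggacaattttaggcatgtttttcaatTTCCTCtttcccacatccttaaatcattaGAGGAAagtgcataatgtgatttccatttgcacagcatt
Clec2g: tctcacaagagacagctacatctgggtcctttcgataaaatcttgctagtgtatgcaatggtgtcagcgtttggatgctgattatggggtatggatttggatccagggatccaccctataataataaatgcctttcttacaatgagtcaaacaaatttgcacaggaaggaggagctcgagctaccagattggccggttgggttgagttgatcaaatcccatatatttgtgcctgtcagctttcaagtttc

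Counted from the start, the matches begin at -123 and -56 in *Clec4e*, at -81 and -55 in *Clec5a*, at -61 and -47 in *Clec12a*, at -96 in *Clec7a*, and at -68 and -39 in *Clec4b1*. In the neighbor of *Clec4e*, *Clec4d*, the only match begins at -240. The RefSeq start used for *Clec12a* lies inside its GENCODE M21 gene model, which begins at position 129342691. The same holds for *Clec4a2*, among others. A match describes the letters of these windows and says nothing of binding, which was not measured.

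Outside the myeloid class, the calls were mainly in the Clr family. *Clec2d* encodes Clr-b, a protein of most blood cells that is recognized by the inhibitory NK receptor NKRP1B (*Klrb1b*). It had 997, 941, and 894 counts with AAV5-*Gfp* and 3030, 1969, and 1854 counts with AAV5-*V1+V2*, the most counts of any called member, and the groups were well apart (log2 fold change 1.24, standard error 0.20, adjusted p = 0.0150). *Clec2g* had 133, 121, and 116 counts with AAV5-*Gfp* and 1870, 821, and 690 counts with AAV5-*V1+V2*. Its log2 fold change of 3.16, with a standard error of 0.41 (adjusted p = 0.0140), was larger than that of every myeloid member other than *Clec4e*, *Clec4d*, and *Clec4n*, and its fold of 8.96 became 5.94 without AAV5-*V1+V2* replicate 1. *Clec2i* had 26, 38, and 14 counts with AAV5-*Gfp* and 228, 138, and 77 counts with AAV5-*V1+V2*, without overlap (log2 fold change 2.49, standard error 0.47, adjusted p = 0.0214). The 4 further Clr genes, *Clec2e*, *Clec2f*, *Clec2h*, and *Clec2j*, had between 0 and 5 counts per library and were not tested, and *Clec2f* and *Clec2j* are annotated as pseudogenes. For *Clec2d*, *Clec2g*, and *Clec2i*, at most 2.37% of the 50-base exon segments were shared with the closest other member.

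The secreted members included 1 call. *Clec11a*, which encodes the growth factor osteolectin, had 105, 110, and 74 counts with AAV5-*Gfp* and 202, 188, and 157 counts with AAV5-*V1+V2* (log2 fold change 0.89, standard error 0.18, adjusted p = 0.0245). The groups were separate, and the adjusted p was 0.0672 without AAV5-*V1+V2* replicate 2. *Clec3b*, which encodes the plasminogen-binding protein tetranectin, had 24, 42, and 34 counts and 37, 51, and 42 counts, which overlapped (log2 fold change 0.35, adjusted p = 0.358). *Clec18a* was the only member with every AAV5-*V1+V2* library below every AAV5-*Gfp* library. It had 115, 129, and 131 counts with AAV5-*Gfp* and 63, 88, and 112 counts with AAV5-*V1+V2* (log2 fold change -0.55, standard error 0.21, adjusted p = 0.113), and it was called lower without AAV5-*V1+V2* replicate 3 (log2 fold change -0.74, adjusted p = 0.0479). The cartilage gene *Clec3a* had at most 2 counts.

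Endothelial, neuronal, and intracellular members were not called. *Clec1a*, which encodes the endothelial melanin sensor MelLec, had 432, 400, and 299 counts with AAV5-*Gfp* and 474, 512, and 567 counts with AAV5-*V1+V2*. Although its groups did not overlap, the difference missed the threshold (log2 fold change 0.42, standard error 0.13, adjusted p = 0.0709), and DESeq2 gave an adjusted p of 0.0382. The endothelial gene *Clec14a* had 307, 262, and 228 counts and 270, 260, and 273 counts (log2 fold change -0.02, standard error 0.13, adjusted p = 0.910). *Clec4g*, a lectin of liver sinusoidal endothelium, had 0, 2, and 4 counts and 5, 13, and 7 counts and was not tested, and 146 of its exon bases lie opposite an antisense gene. *Clec2l*, a lectin of neurons, had 2469, 2079, and 1657 counts and 1500, 2201, and 1975 counts, with AAV5-*V1+V2* replicate 1 the lowest of all 6 libraries (log2 fold change -0.16, standard error 0.17, adjusted p = 0.525). *Clec16a*, an intracellular regulator of mitophagy, had 2902, 3201, and 3368 counts and 3163, 2880, and 2996 counts (log2 fold change -0.10, standard error 0.09, adjusted p = 0.433). The 4 genes tested here had at least 228 counts in every library.

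Per length of exon, the order of the members differed between the groups. With AAV5-*Gfp* the highest mean levels were those of *Clec2l* (44.3 CPM per kb), *Clec2d* (23.8 CPM per kb), and *Clec16a* (11.6 CPM per kb). All other tested members were between 0.083 CPM per kb for *Clec4e*, the lowest, and 2.22 CPM per kb for *Clec1a*. With AAV5-*V1+V2* *Clec2d* came first (56.4 CPM per kb), followed by *Clec2l* (39.5 CPM per kb), *Clec2g* (11.9 CPM per kb), and *Clec16a* (10.8 CPM per kb). The highest myeloid levels were then those of *Clec4n* (7.34 CPM per kb), *Clec4d* (5.99 CPM per kb), *Clec4a3* (5.62 CPM per kb), and *Clec7a* (5.04 CPM per kb), and *Clec4e* had reached 3.87 CPM per kb. Given the spread of AAV5-*V1+V2*, levels as close as those of *Clec2g* and *Clec16a*, or of *Clec4d* and *Clec4a3*, cannot be put in an order.

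On GRCm38, 25 of the 33 members lie on chromosome 6, and 13 of the 18 tested there rose, beside 2 of 6 tested on other chromosomes (*Clec10a* on chromosome 11 and *Clec11a* on chromosome 7). Over all genes tested, wherever they lie, 10.1% were called higher. Of the 6 tested on other chromosomes, only *Clec10a* was classed as myeloid, so these counts do not separate location from class. The Dectin-2 cluster (members spanning chr6:122921848-123289870) holds 9 members, of which 8 were tested and 6 rose. From one end to the other its order is *Clec4a1*, *Clec4a3*, *Clec4a4*, *Clec4b1*, *Clec4a2*, *Clec4b2*, *Clec4n*, *Clec4d*, and *Clec4e*. The genes that were not called or not tested lie between called ones. The log2 fold changes of the last 3 genes in this order are the largest of all members in the fit reported. Without AAV5-*V1+V2* replicate 1, that of *Clec2g* was above those of *Clec4n* and *Clec4d*. The natural killer gene complex (members spanning chr6:128652416-129472779) holds 13 members, of which 8 were tested and 6 rose: *Clec2i*, *Clec2g*, *Clec2d*, *Clec12a*, *Clec9a*, and *Clec7a*.

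**Figure D2:**
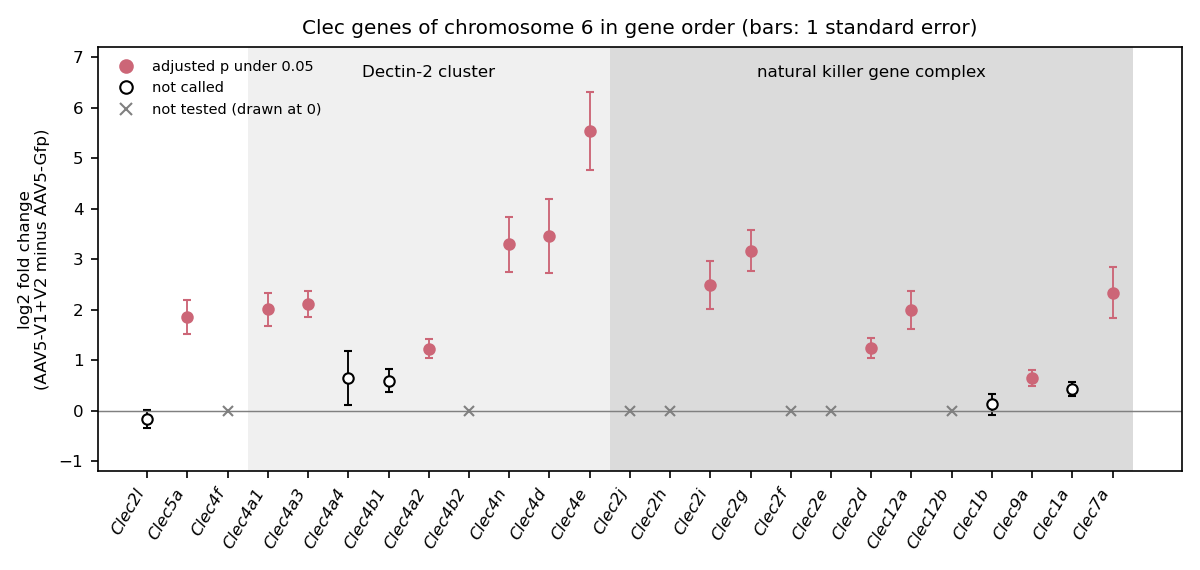
Log2 fold change (AAV5-*V1+V2* minus AAV5-*Gfp*, bars of 1 standard error) of the 25 *Clec* genes of chromosome 6 in gene order and not to scale of distance; filled points were called higher, open points were not called, and crosses were not tested. The values of *Clec4n*, *Clec4d*, and *Clec4e* at the end of the Dectin-2 cluster are 3.29, 3.46, and 5.54.

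All 15 called members were highest in AAV5-*V1+V2* replicate 1. Among the AAV5-*V1+V2* libraries, most genes called higher were also highest in replicate 1. The ratio of replicate 1 to replicate 3 was 7.29 for *Clec4d*, 5.75 for *Clec4e*, 3.99 for *Clec4n*, and 3.79 for *Clec7a*, and it was 1.25 for *Clec9a*, 1.31 for *Clec4a2*, and 1.34 for *Clec11a*. The same ratio was 2.62 for the summed macrophage markers. Without replicate 1, 14 of the 15 calls were kept, and the one lost was *Clec9a*. The calls depended more on the control libraries: 3 were kept without AAV5-*Gfp* replicate 1 (*Clec2g*, *Clec4a2*, and *Clec4a3*), 0 without replicate 2, and 0 without replicate 3. In the same fits the number of all genes called higher went from 1872 to 257, 12, and 15. The AAV5-*Gfp* libraries nonetheless differed less from one another than AAV5-*V1+V2* replicate 1 did from its group. Chi-square per degree of freedom was 8.79 to 14.7 among the former, and 34.6 and 52.7 for replicate 1 against replicates 2 and 3. The 15 members kept an unadjusted p under 0.05 in each of the 3 fits without a control library, and their adjusted p ranged from 0.0448 to 0.120. By limma-voom 12 of the 15 were called, with adjusted p of 0.0532 for *Clec4e*, 0.0903 for *Clec4d*, and 0.0621 for *Clec7a*.

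Because macrophage markers rose too, the called members were also expressed relative to them, as CPM of the gene per 1000 CPM summed over the 16 macrophage and monocyte markers. These ratios are descriptions without a test. *Clec4e* had ratios of 1.22, 1.07, and 2.01 with AAV5-*Gfp* and of 10.7 to 23.5 with AAV5-*V1+V2*, and its mean ratio was 11.4-fold higher. *Clec4d* was 2.64-fold higher, *Clec4n* 2.57-fold, and *Clec2g* 2.46-fold. For these 4 genes the libraries of AAV5-*V1+V2* were all above those of AAV5-*Gfp*, and without AAV5-*V1+V2* replicate 1 the folds were 8.95, 1.91, 2.21, and 2.35. *Clec4a1* was also above in every library, at 1.16-fold. *Clec2i*, *Clec7a*, *Clec4a3*, *Clec12a*, and *Clec5a* overlapped between the groups at 1.59-fold to 1.03-fold, and so did *Clec4a2* at 0.738-fold. *Clec10a* (0.741-fold), *Clec2d* (0.712-fold), *Clec11a* (0.588-fold), and *Clec9a* (0.498-fold) were below the controls in every AAV5-*V1+V2* library.

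The choice of markers moved these ratios. *Lyz2*, singled out after its values were seen, held 23.6% to 31.6% of the summed marker level in the AAV5-*Gfp* libraries and 43.7% to 60.8% in those of AAV5-*V1+V2*. The share of *Mertk* went the other way, from 18.1% to 36.1% with AAV5-*Gfp* to 5.71% to 12.7% with AAV5-*V1+V2*. *Mertk* stayed in the sum when *Lyz2* was left out, and ratios without *Mertk* were not computed. Without *Lyz2*, *Clec4e* was 18.3-fold higher, *Clec4d* 4.23-fold, *Clec4n* 3.96-fold, and *Clec2g* 3.73-fold. Relative to *Csf1r* alone these folds were 13.3, 3.15, 3.11, and 2.93. Leaving out AAV5-*V1+V2* replicate 1 as well, they were 12.2, 2.58, 2.95, and 3.13 without *Lyz2* and 10.1, 2.21, 2.60, and 2.72 relative to *Csf1r*. *Clec4e*, *Clec4d*, *Clec4n*, *Clec2g*, and *Clec4a1* stayed above the controls in every library in both cases, and *Clec9a* stayed below. *Clec10a* and *Clec2d* overlapped in both, and *Clec11a* overlapped without *Lyz2* only. *Clec12a* and *Clec5a*, which overlapped over all 16 markers, were above the controls without *Lyz2* (1.68-fold and 1.54-fold) and overlapped relative to *Csf1r*, and *Clec7a*, *Clec4a3*, and *Clec2i* were above in both cases.

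**Figure D3:**
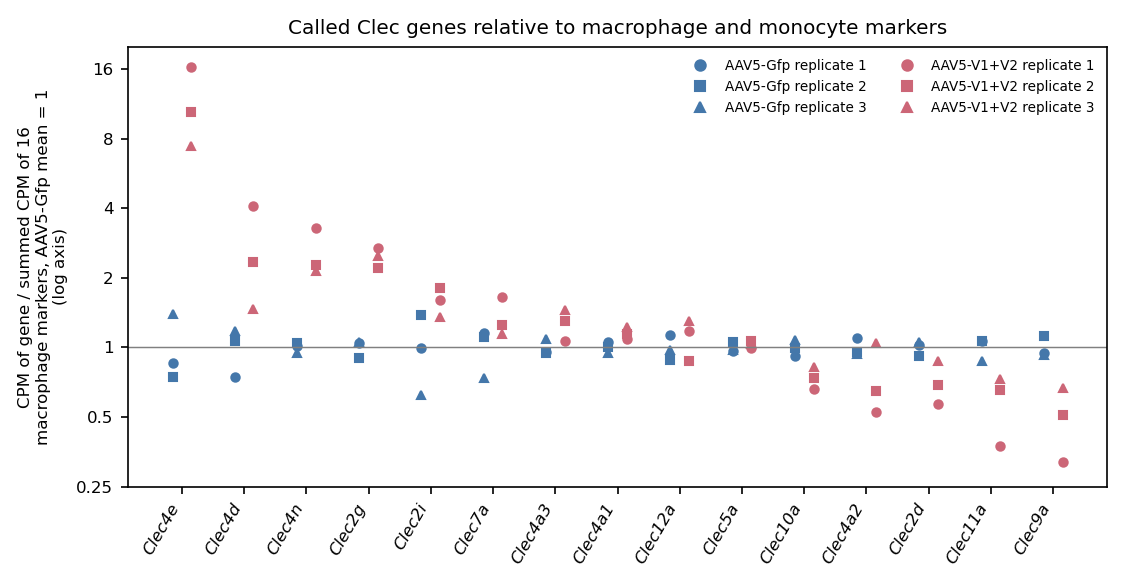
CPM of each called *Clec* gene divided by the summed CPM of 16 macrophage and monocyte markers in each library, scaled so that the AAV5-*Gfp* mean is 1 (log axis; symbols mark the replicates). *Clec4e*, *Clec4d*, *Clec4n*, and *Clec2g* lie above 1 in all AAV5-*V1+V2* libraries, with mean folds of 11.4, 2.64, 2.57, and 2.46, and *Clec9a* lies below 1 in all of them (0.498).

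Signalling genes that these receptors use were also compared. Of 36 genes of the pathway, all of them tested, 22 rose, 0 fell (also 0 at an unadjusted p under 0.05 and by DESeq2 and limma-voom), and 14 were not called, beside the 10.1% of all genes called higher, and their median log2 fold change was 1.06. The number called higher was 24 by DESeq2 and 17 by limma-voom, and it was 0 without AAV5-*Gfp* replicate 1, without replicate 2, or without replicate 3. All 3 adaptors were called, of which *Hcst* had fewer than 10 counts in every AAV5-*Gfp* library. The FcRγ gene *Fcer1g*, which couples Mincle and Dectin-2, had 126, 126, and 99 counts with AAV5-*Gfp* and 843, 411, and 297 counts with AAV5-*V1+V2* (log2 fold change 2.12, standard error 0.39, adjusted p = 0.0191). *Tyrobp*, which couples MDL-1, had 175, 196, and 127 counts and 1027, 602, and 403 counts (log2 fold change 2.01, standard error 0.35, adjusted p = 0.0172). Both genes were above the controls in every library, and their differences were close to those of *Clec7a*, *Clec4a1*, and *Clec12a*.

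Of 10 kinases 5 rose. *Syk*, the kinase on which the activating receptors converge, had 550, 506, and 530 counts with AAV5-*Gfp* and 4671, 2080, and 1647 counts with AAV5-*V1+V2* (log2 fold change 2.38, standard error 0.39, adjusted p = 0.0159), and its fold of 5.19 became 3.42 without AAV5-*V1+V2* replicate 1. The kinase *Btk* also rose (log2 fold change 2.07, adjusted p = 0.0157). Of 6 effectors 5 rose, among them the exchange factor *Vav1* (log2 fold change 2.25, adjusted p = 0.0144) and the phospholipase *Plcg2* (log2 fold change 1.81, adjusted p = 0.0149). *Syk*, *Btk*, and *Plcg2* also serve B cell receptor signalling, and B cell markers rose in the same libraries. The part of B cells in the values of these genes and of the other signalling genes was not tested.

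*Card9*, the adaptor downstream of Syk, had 78, 55, and 78 counts with AAV5-*Gfp* and 247, 117, and 105 counts with AAV5-*V1+V2*. It was higher in every AAV5-*V1+V2* library but did not pass the test (log2 fold change 1.11, standard error 0.37, adjusted p = 0.0819). In its group of 5 genes 2 rose, and of 8 transcription factors 5 rose. Of 4 inhibitors of the pathway 2 rose. These were the phosphatase genes *Ptpn6*, whose product binds ITIMs, with 270, 209, and 202 counts and 1865, 911, and 773 counts (log2 fold change 2.35, standard error 0.35, adjusted p = 0.0144), and *Inpp5d* (log2 fold change 1.72, standard error 0.26, adjusted p = 0.0144).

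**Figure D4:**
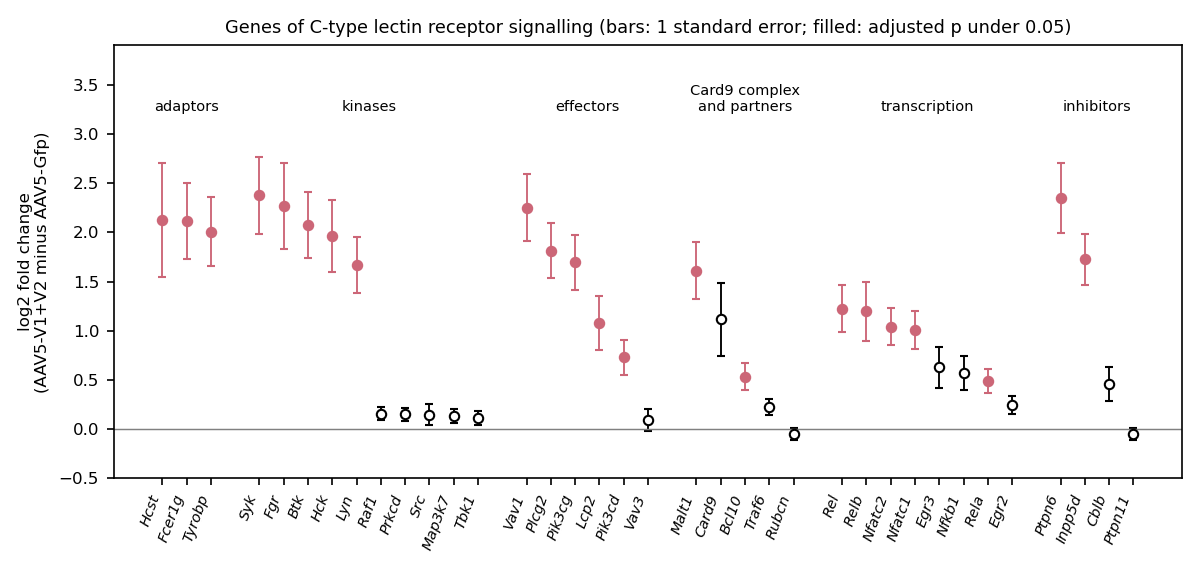
Log2 fold change (AAV5-*V1+V2* minus AAV5-*Gfp*, bars of 1 standard error) of 36 genes of C-type lectin receptor signalling, grouped by role; filled points had an adjusted p under 0.05. The 3 adaptors lie near 2, and 22 of the 36 genes were called higher.

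Cytokine and inflammatory target genes of these receptors were sparsely counted. Of 12 such genes 6 passed the filter and 5 of these rose, but *Tnf*, *Il12b*, and *Ccl3* had fewer than 10 counts in at least 1 AAV5-*Gfp* library and passed only through the AAV5-*V1+V2* group. Of the 3 genes with at least 10 counts in every AAV5-*Gfp* library, 2 rose. Over the whole list DESeq2 called 5 higher and limma-voom 3. *Tnf* had 12, 9, and 11 counts with AAV5-*Gfp* and 150, 66, and 57 counts with AAV5-*V1+V2* (log2 fold change 3.05, standard error 0.46, adjusted p = 0.0144). *Il1b* had 18, 25, and 27 counts and 363, 179, and 52 counts (log2 fold change 3.06, standard error 0.68, adjusted p = 0.0296), and its fold of 8.32 became 4.81 without AAV5-*V1+V2* replicate 1. By limma-voom the adjusted p of *Il1b* was 0.102. *Il12b* rose from 8, 6, and 2 counts to 73, 40, and 20 counts (8.02-fold, adjusted p = 0.0251). These genes have many other regulators, and a link to the *Clec* genes was not tested.

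Of 9 receptors and ligands that pair with members, 8 were tested and 0 were called by edgeR's quasi-likelihood test. At an unadjusted p under 0.05, 3 were higher and 1 was lower, limma-voom called 0, and DESeq2 called 3 higher, the NKRP1 genes *Klrb1b*, *Klrb1f*, and *Klrb1c*. The 1 that was lower was also an NKRP1 gene, *Klrb1a*, with 129, 134, and 113 counts with AAV5-*Gfp* and 90, 95, and 114 counts with AAV5-*V1+V2* (log2 fold change -0.37, adjusted p = 0.119). The Clr-b receptor gene *Klrb1b* had 7, 0, and 2 counts with AAV5-*Gfp* and 24, 14, and 14 counts with AAV5-*V1+V2* (log2 fold change 2.45, standard error 0.73, adjusted p = 0.0619). Its fold of 5.45 became 15.2 without AAV5-*Gfp* replicate 1 and 3.59 without replicate 2. *Klrb1f*, which encodes a further NKRP1 receptor for Clr proteins, had 15, 7, and 6 counts and 40, 24, and 20 counts (log2 fold change 1.54, standard error 0.45, adjusted p = 0.0575). Both were higher in every AAV5-*V1+V2* library, and both passed the filter only through these libraries. *Pdpn*, which encodes the Clec1b ligand podoplanin (log2 fold change 0.07, adjusted p = 0.598), and *Mmrn2*, which encodes a ligand of Clec14a (log2 fold change 0.01, adjusted p = 0.921), were not called.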

How the data were processed

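RNA sequencing of total RNA from 6 DRG samples was analysed. Per the labels, libraries were made with a stranded total RNA kit, and the submitters' processing notes name GRCm38 and mm10. The authors deposited raw counts of reads per gene symbol, without normalization. The aligner, counting program, annotation, use of strand, and treatment of multiply mapped reads are not given in the sources used here. Genes were filtered with filterByExpr, normalized by TMM, and compared with the quasi-likelihood test of edgeR 4.0.16 (R 4.3.3) without a covariate, and p-values were adjusted by Benjamini-Hochberg over all 18593 genes tested. edgeR gives no standard error, so the absolute coefficient was divided by the square root of F. The calculation was tested on simulated counts. DESeq2 1.42.0, limma-voom (limma 3.58.1), other normalizations and filters, a replicate block, and leaving out each library were alternatives. Ratios to macrophage markers without *Lyz2* or with *Csf1r* alone were added after the data were seen. Within-group chi-square per degree of freedom was 8.79 to 52.7, so no libraries were merged. The highest values were those of AAV5-*V1+V2* replicate 1 against replicates 2 and 3 (34.6 and 52.7). Same-numbered libraries of the groups had correlations of deviations of 0.0378, 0.0649, and 0.139, and the labels name no pairs. The numbers were therefore not taken as pairs in the main fit. Gene models and exon lengths came from GENCODE M21, and promoters from RefSeq (GRCm38.p6). The members, their classes, and all gene lists were chosen with earlier results of these data known. Every member is named, and from other lists the genes with the smallest adjusted p (at most 6 of the signalling and related-lectin lists, at most 3 of others) and direct partners of members. Genes named outside this rule, *Lyz2*, *Mertk*, *Csf1r*, *Cadm1*, *Klrb1a*, *Klrb1c*, *Ccl3*, *Hcst*, and *Ncan*, were chosen after their values were seen. A further gene of the related-lectin list is not reported here.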

Additional observations from a re-analysis of the deposited data

How the results depend on the processing

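The number of *Clec* members called higher, 15 in the fit reported, was 15 under RLE, upper-quartile, and total-count scaling, both other filters, the replicate block, and the summing of suffixed rows, 16 by DESeq2 (*Clec1a* added), and 12 by limma-voom. When libraries were left out, it ranged from 0 to 15, the number called lower from 0 to 1 (*Clec18a*, without AAV5-*V1+V2* replicate 3), and the signalling genes called higher from 0 to 24, where all 6 libraries gave 22. The 0 for signalling genes came without each of the AAV5-*Gfp* libraries in turn, fits that had 2 control libraries, and the cause was not tested further. The direction of the 15 called members held in all 15 alternatives. Directions reversed only for members that were not called: *Clec14a*, at -0.02 on the log2 scale, was 0.0335 with total counts only and ranged from -0.10 to 0.10 when libraries were left out, and *Clec1b*, at 0.13, ranged from -0.0208 (without AAV5-*Gfp* replicate 3) to 0.26. The replicate numbers are shared by the groups, and whether they pair the libraries was not settled. With the replicate block 15 members and 24 signalling genes were called higher. Over all genes the block called 2118 higher and 1341 lower, beside 1872 and 980 without it. AAV5-*Gfp* replicate 2 correlated better with AAV5-*V1+V2* replicate 1 (0.0719) than with its own number (0.0649). AAV5-*Gfp* replicates 1 and 3 correlated best with their own numbers (0.0378 and 0.139). The filter left out 9 members with low counts, and without a filter all 33 were tested and the number called higher was again 15.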

Other observations

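C-type lectins outside the *Clec* symbols were described in the same fit, on a list of 43 genes of which 37 were tested. Of these, 14 rose, 1 fell, and 22 were not called, and the median log2 fold change was 0.53 (edgeR's quasi-likelihood test, Benjamini-Hochberg adjusted; 10.1% of all genes were called higher). Of the 37, 28 had at least 10 counts in every AAV5-*Gfp* library, and 10 of these rose and 1 fell. The other 9 did not pass the filter on the AAV5-*Gfp* libraries alone. Those with the smallest adjusted p that are given here were mostly lectins of lymphocytes. *Cd69*, an early activation marker, had 7, 4, and 1 counts with AAV5-*Gfp* and 118, 50, and 49 counts with AAV5-*V1+V2* (log2 fold change 4.11, standard error 0.61, adjusted p = 0.0144). It passed the filter only through the AAV5-*V1+V2* group, and its fold of 17.3 became 27.4 without AAV5-*Gfp* replicate 1. The B cell lectin *Cd72* had 98, 95, and 78 counts and 555, 373, and 286 counts (log2 fold change 2.13, standard error 0.26, adjusted p = 0.0139). *Fcer2a*, the low-affinity IgE receptor of B cells, had 42, 35, and 32 counts and 290, 138, and 145 counts (log2 fold change 2.36, standard error 0.34, adjusted p = 0.0144). The NK and T cell receptor gene *Klrk1* rose too (log2 fold change 2.70, standard error 0.44, adjusted p = 0.0159), and so did *Cd209a*, a DC-SIGN relative of dendritic cells (log2 fold change 1.26, standard error 0.24, adjusted p = 0.0210). For each of these genes the libraries of AAV5-*V1+V2* were all above those of AAV5-*Gfp*. The 1 gene that fell was *Ncan*, named after its value was seen, which encodes the neural proteoglycan neurocan (log2 fold change -0.52, standard error 0.14, adjusted p = 0.0464). Its counts were 636, 855, and 739 with AAV5-*Gfp* and 444, 618, and 525 with AAV5-*V1+V2*. B, T, and NK cell markers rose in the same libraries, and their part in these values was not tested.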
